A study of Homo sapiens with 12 samples.

Results

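The genes described here build and regulate the transport of sodium, chloride and water across the membrane of kidney epithelial cells. They are 7 genes, chosen by name: ATP1B1, ATP1B3, FXYD5, SLC12A2, AQP1, AQP3 and NEDD4L. On the array they are represented by 20 probe sets, groups of short probes that each target a transcript, whose annotation gives exactly that symbol; the whole table holds 54675 probe sets and 19775 genes with a symbol of their own. Of the 7 genes 6, with 12 of the 20 probe sets, passed a filter on low values, which asks for more than 4 on 3 or more of the 12 arrays, against 10729 genes in all. AQP1 did not pass and was not tested.

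The RNA came from HK-2, a line of immortalized human proximal tubule epithelial cells grown on plastic in a medium with hydrocortisone, insulin, transferrin, selenite and epidermal growth factor. The 12 Affymetrix arrays fall into 4 groups of 3: cells given a high dose of the compound labelled Ota for 24 h, cells given Ota for 72 h, and vehicle-treated control cells for the same times. What Ota stands for, how much was given and what the vehicle was are not in the labels. The 3 arrays of a group are labelled as biological replicates, but not as separate cultures, so a p-value here reflects the spread among these samples, which may be technical. The series looks for expression signatures of toxicity to the kidney, and the comparisons below ask how Ota-treated cells differed from control cells at each time and whether that difference changed between the times.

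The sodium pump (Na,K-ATPase) exports sodium and imports potassium at the expense of ATP, and its gradient drives most other transport in the tubule. A catalytic alpha subunit does the pumping, a beta subunit (ATP1B1 or ATP1B3, among others) brings the alpha subunit to the cell surface, and small FXYD proteins such as FXYD5 tune the finished pump. SLC12A2 (NKCC1) carries sodium, potassium and chloride together into the cell and helps to set its volume. AQP1 is the water channel of the proximal tubule, and AQP3 passes water and glycerol and lies, in the kidney, in the basolateral membrane of the collecting duct. NEDD4L is a ubiquitin ligase best known for removing the epithelial sodium channel from the cell surface.

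Promoters are shown for the pair of beta subunit genes and for AQP3, the gene among the 7 with the highest fold change at 72 h. The products of the pair do the same job, and their brightest probe sets changed unequally with Ota. The sequences are the 250 bases before the RefSeq transcription start in GRCh38.p14, written 5′ to 3′ on the strand of the gene. Capitals mark 4 short motifs, searched on either strand. The first is GGGCGG, the core of a GC box. The second, CCAAT, is the core of the element named after it. The next one is TATAAA, which is found at many tissue-specific promoters. The last is TGACG, the core of a cAMP response element. Their positions are chr1:169106440-169106689 on the plus strand for ATP1B1, chr3:141876393-141876642 on the plus strand for ATP1B3 and chr9:33447594-33447843 on the minus strand for AQP3.
ATP1B1: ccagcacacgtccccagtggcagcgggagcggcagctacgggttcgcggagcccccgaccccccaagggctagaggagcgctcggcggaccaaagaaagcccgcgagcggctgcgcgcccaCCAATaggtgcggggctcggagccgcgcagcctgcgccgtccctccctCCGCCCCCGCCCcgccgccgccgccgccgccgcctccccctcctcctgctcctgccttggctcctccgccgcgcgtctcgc
ATP1B3: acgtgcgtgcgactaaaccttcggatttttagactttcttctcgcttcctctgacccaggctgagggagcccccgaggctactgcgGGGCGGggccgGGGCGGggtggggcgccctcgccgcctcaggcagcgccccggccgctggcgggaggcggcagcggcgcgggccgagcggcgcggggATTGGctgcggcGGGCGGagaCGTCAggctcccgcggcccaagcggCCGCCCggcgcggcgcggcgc
AQP3: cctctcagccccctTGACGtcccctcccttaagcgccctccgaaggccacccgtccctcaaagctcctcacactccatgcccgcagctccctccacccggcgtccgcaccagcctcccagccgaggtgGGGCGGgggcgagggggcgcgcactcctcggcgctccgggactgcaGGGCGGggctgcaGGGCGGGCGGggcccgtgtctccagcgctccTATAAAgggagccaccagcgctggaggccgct

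The window of ATP1B1 held 2 adjoining GGGCGG matches and 1 CCAAT match. That of ATP1B3 held 4 GGGCGG matches, 1 CCAAT match and 1 TGACG match. The AQP3 window held 4 GGGCGG matches, of which the pair nearest the start overlap, 1 TGACG match, and 1 TATAAA match whose first base lies 32 bases before the start. Across 35116 promoter windows of the same length, 42.6% held GGGCGG, 32.0% CCAAT, 10.7% TATAAA and 21.2% TGACG. All 3 windows were rich in G and C, with 77.6% for ATP1B1, 77.2% for ATP1B3 and 73.6% for AQP3. Of the other members with 1 listed start, FXYD5 had 1 GGGCGG match, AQP1 had 3 and a TATAAA match, and SLC12A2 had 3 and a TGACG match. NEDD4L has 5 listed starts, whose windows held no GGGCGG and no TATAAA match. The files do not tie its probe sets to a start. These matches describe letters in a window and say nothing of binding.

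All values below are log2 expression values of the GCRMA method as deposited, so a difference of 1 is a 2-fold change; they run from 0.75 to 15.77 in the table. Differences between Ota and control touched the arrays as a whole. The median of the tested genes was lower on the Ota arrays, at 7.40 ± 0.16 (SD, n = 3) against 7.97 ± 0.05 at 24 h and 7.68 ± 0.05 against 7.96 ± 0.02 at 72 h. Poly-A RNAs spiked into a sample before labelling read higher by 1.85 at 24 h and 0.89 at 72 h, and 18S ribosomal RNA read higher by 1.58 and 1.34. Each of these differences separated the 3 Ota from the 3 control arrays, with an exact two-sided permutation p of 0.1, the smallest that 3 against 3 can give. The difference between the 3′ and 5′ ends of ACTB, a sign of RNA integrity, was 0.05 higher at 24 h (exact permutation p = 0.9) and 0.58 higher at 72 h (exact permutation p = 0.1). For GAPDH the same measure overlapped at 72 h, with 0.05, -0.09 and -0.04 on the Ota arrays and -0.05, -0.05 and -0.06 on the controls. Directions are therefore given as deposited and also after quantile normalization, after centring each array on its median, and after scaling by the spiked-in poly-A RNAs (spike-in scaling), which move the median fold change of all genes by 0.20, 0.56 and -1.85 at 24 h and by 0.07, 0.28 and -0.89 at 72 h. The part of these array-wide differences in the results was not tested. In RNA from whole cultures, fewer cells of a kind and less RNA per cell cannot be told apart. Of 14 proximal tubule markers only GATM and PAX8 passed the filter, while LRP2 and CUBN, which define the proximal tubule, did not. All 7 general epithelial markers passed, and 0 of 8 collecting duct markers did.

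At 24 h, 3 of the 6 tested genes were higher with Ota (FXYD5, AQP3 and NEDD4L), 0 were lower and 3 did not pass the test. As background, limma called 61.3% of all tested genes at 24 h, 20.8% as higher and 40.5% as lower, at an adjusted p under 0.05. At 72 h, 3 genes were again higher (ATP1B3, AQP3 and NEDD4L) and 0 lower, against a background of 60.1%, of which 24.8% were higher and 35.2% lower. The median log2 fold change of the 6 genes was 0.69 at 24 h and 0.47 at 72 h, beside -0.24 and -0.11 for all genes tested. The groups of arrays did not overlap for 4 of the 6 genes at 24 h and for 5 at 72 h, beside 65.7% and 73.7% of all genes. These counts hold for the values as deposited. After scaling to the spike-ins NEDD4L alone was higher at 24 h while the other 5 were lower (limma adjusted p under 0.05). At 72 h AQP3 and NEDD4L were then higher while ATP1B1, FXYD5 and SLC12A2 were lower. As background, that scaling called 10187 of the 10729 tested genes at 24 h, 1.49% of them as higher. At 72 h 7.63% of its calls were higher.

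**Figure D1:**
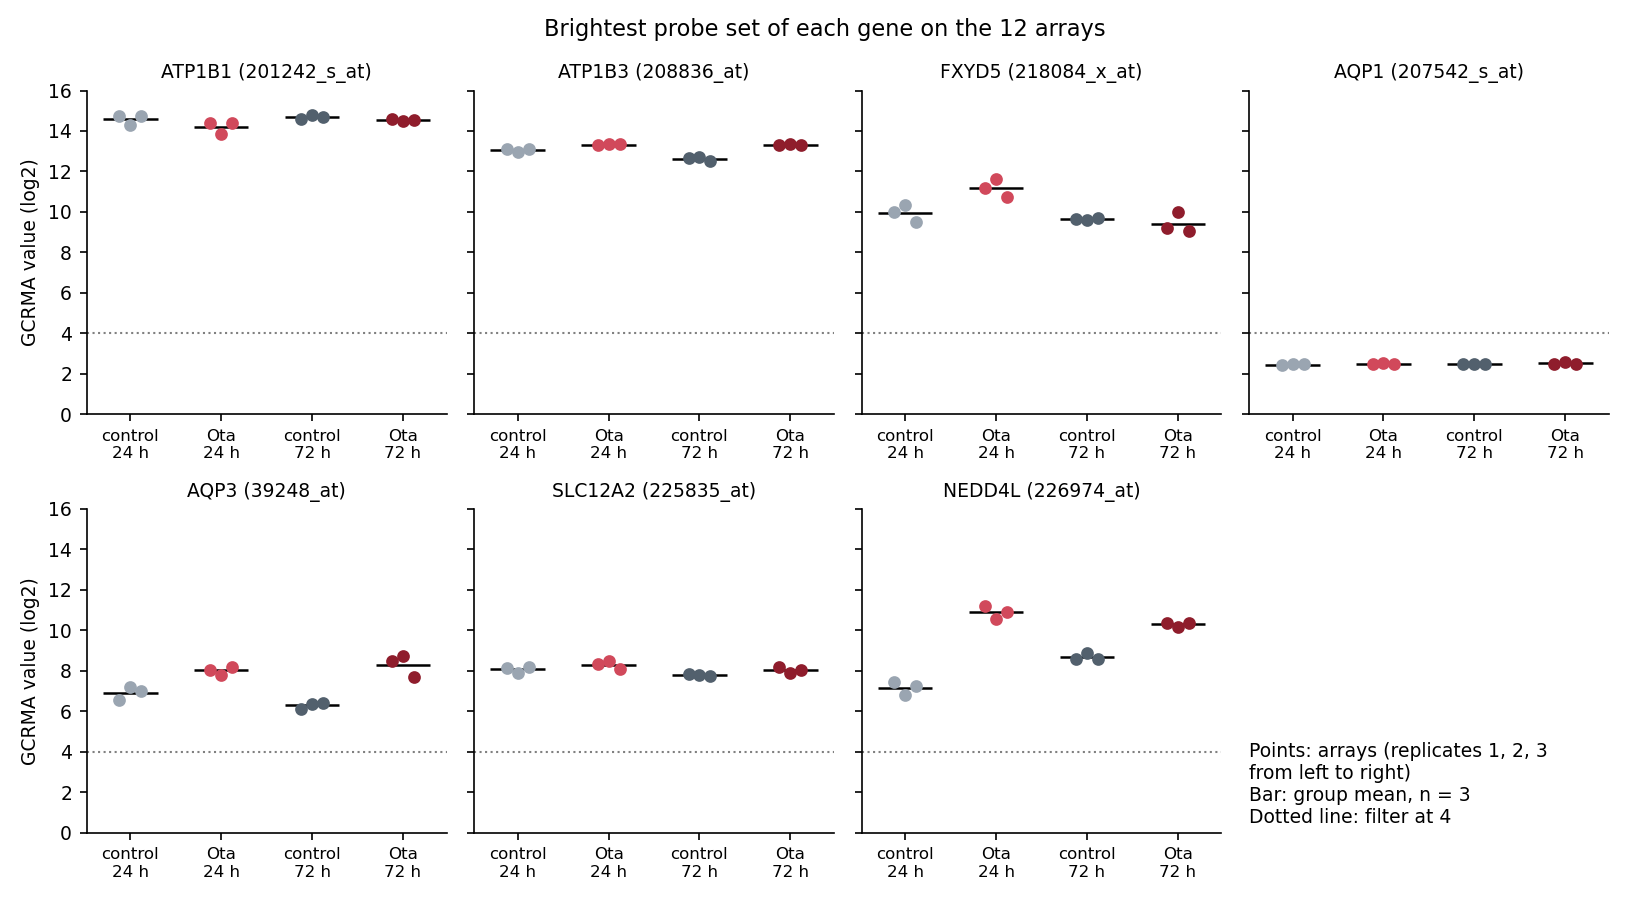
GCRMA values (log2, vertical axis) of the brightest probe set of each gene on the 12 arrays, with 1 point per array, a bar at the mean of each group (n = 3) and a dotted line at the filter value of 4. NEDD4L has its 4 groups apart from each other, AQP3 has both Ota groups above both control groups, FXYD5 is raised in the Ota group at 24 h alone, and AQP1 lies below the filter on all arrays; levels of different genes are not comparable.

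Of the pump's beta subunits, ATP1B1 encodes the main one of kidney epithelium. Its brightest probe set read 14.73, 14.31 and 14.75 in control cells at 24 h and 14.37, 13.86 and 14.39 with Ota. At 72 h it read 14.61, 14.78 and 14.67 in control cells and 14.60, 14.51 and 14.56 with Ota. The groups overlapped at 24 h by 1 control array, and at 72 h all 3 Ota arrays lay below all 3 controls by a narrow margin. The log2 fold change was -0.39 ± 0.17 (SE, limma adjusted p = 0.071) at 24 h and -0.13 ± 0.17 (adjusted p = 0.541) at 72 h, so ATP1B1 did not pass the test at either time. The 95% interval of the difference was -0.77 to -0.01 at 24 h and -0.51 to 0.25 at 72 h. A variance model with trend and robust moderation did call the 24 h difference (adjusted p = 0.0282), as did the fits without control replicate 2 (-0.53, adjusted p = 0.0262) or without Ota replicate 3 (-0.48, adjusted p = 0.0431) of that time. After centring the difference was 0.17 at 24 h and 0.15 at 72 h, after quantile normalization -0.42 and 0.06, and after spike-in scaling -2.24 and -1.02. The second probe set read between 11.66 and 12.17 on all 12 arrays, with differences of 0.06 and 0.00 and overlapping groups. After centring it passed as higher at 24 h (0.62, adjusted p = 0.00495). After spike-in scaling it passed as lower at both times (-1.8 and -0.89, adjusted p = 1.03e-05 and 0.00916).

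ATP1B3 encodes a more widely expressed beta subunit. Its brightest probe set read 13.10, 12.94 and 13.12 in control cells at 24 h and 13.29, 13.34 and 13.37 with Ota. At 72 h the controls read 12.66, 12.71 and 12.52 and the Ota arrays 13.29, 13.34 and 13.29. All Ota arrays lay above all controls at both times, and the Ota arrays of the 2 times overlapped while the controls of 72 h lay below those of 24 h. The difference was 0.28 ± 0.12 (limma adjusted p = 0.0614) at 24 h, which did not pass, and 0.68 ± 0.12 (adjusted p = 0.000418), or 1.60-fold, at 72 h. The 24 h difference passed as higher with trend and robust moderation (adjusted p = 0.00862), without the filter on low values (adjusted p = 0.00533), after centring (0.84, adjusted p = 0.000163) and with the mean over the gene's probe sets (0.91), while after spike-in scaling it was called lower (-1.57, adjusted p = 2.94e-05). The rise at 72 h held after quantile normalization (0.59) and centring (0.96) and was lost with its sign turned after spike-in scaling (-0.21, adjusted p = 0.492).

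A second ATP1B3 probe set lies much nearer the filter. It read 3.81, 4.50 and 4.44 in control cells and 5.70, 5.54 and 6.12 with Ota at 24 h, and 3.96, 3.83 and 3.29 against 5.64, 5.32 and 5.15 at 72 h. Again every Ota array lay above every control array of its time. In the fit over all 19401 probe sets that passed the filter it rose by 1.53 ± 0.25 (adjusted p = 0.000214) at 24 h and by 1.68 ± 0.25 (adjusted p = 0.000112) at 72 h. The 3 controls of 72 h, and 1 control of 24 h, lie below the filter value of 4, so the size of these differences rests on readings below or near that value and is not set against that of the brightest probe set. After spike-in scaling the differences were -0.32 and 0.79. The third probe set of the gene stayed under the filter, between 2.38 and 2.42 on all arrays.

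The beta subunits can be compared within each array, where a scaling that shifts a whole array cancels. The difference ATP1B3 minus ATP1B1 was -1.54 ± 0.14 (SD, n = 3) in control cells and -0.87 ± 0.31 with Ota at 24 h, and -2.06 ± 0.10 against -1.25 ± 0.07 at 72 h. It was thus higher with Ota by 0.67 at 24 h and 0.81 at 72 h, and at each time the 3 Ota arrays lay above the 3 controls. This pair was chosen after its values were seen, so the difference is a description without a test. It shows an unequal change of the brightest probe set of each gene, not which of them moved. At 24 h the second ATP1B1 probe set differed by 0.06, beside -0.39 for the brightest. With that second probe set in its place, the Ota and control arrays overlap at 24 h and stay apart at 72 h.

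FXYD5 (dysadherin) is a FXYD protein that associates with the pump and is also known for its effect on cell adhesion. Its brightest probe set read 10.01, 10.36 and 9.51 in control cells at 24 h and 11.18, 11.65 and 10.73 with Ota. At 72 h the controls read 9.65, 9.62 and 9.71 and the Ota arrays 9.19, 9.99 and 9.07. The Ota arrays lay above all controls at 24 h, and on both sides of them at 72 h, where Ota replicate 2 was the highest and the other Ota arrays the lowest of the 6. FXYD5 rose by 1.22 ± 0.29 (limma adjusted p = 0.00336), or 2.34-fold, at 24 h as deposited, and by 1.23 and 1.79 after quantile normalization and centring, while after spike-in scaling it fell by 0.63 (adjusted p = 0.0281). At 72 h the difference was -0.25 ± 0.29 (adjusted p = 0.494), and -0.29, 0.04 and -1.13 under the same scalings, of which the last passed as lower (adjusted p = 0.00102). The Ota effect changed from 24 h to 72 h for 2 of the 6 genes, FXYD5 and NEDD4L, negatively in both, where limma called 29.6% of all genes as positive changes and 19.9% as negative. For FXYD5 the change was -1.47 ± 0.41 (adjusted p = 0.0121) and was negative under all 4 scalings, though it no longer passed after spike-in scaling (-0.51, adjusted p = 0.233).

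The second FXYD5 probe set gave the same order of groups. It read 9.57, 9.71 and 9.27 in control cells and 10.60, 11.11 and 10.12 with Ota at 24 h, and 9.11, 9.07 and 9.13 against 8.74, 9.70 and 8.65 at 72 h. It rose by 1.10 ± 0.29 at 24 h (adjusted p = 0.00647), differed by -0.07 ± 0.29 at 72 h (adjusted p = 0.852), and its effect changed by -1.17 ± 0.41 (adjusted p = 0.0367). After spike-in scaling it was lower at both times, at -0.75 (adjusted p = 0.0119) and -0.96 (adjusted p = 0.00442), and the change of effect did not pass (-0.21, adjusted p = 0.643). The brightest probe set carries the array maker's mark for probes that may cross-hybridize, and this one carries the mark for probes shared by several transcripts.

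SLC12A2, the sodium, potassium and chloride cotransporter, gave different answers from its probe sets. The brightest read 8.15, 7.88 and 8.19 in control cells and 8.32, 8.48 and 8.10 with Ota at 24 h, and 7.83, 7.79 and 7.75 against 8.20, 7.91 and 8.02 at 72 h. Groups overlapped at 24 h, and at 72 h all Ota arrays lay above the controls. Its differences of 0.23 ± 0.15 (limma adjusted p = 0.206) and 0.25 ± 0.15 (adjusted p = 0.162) did not pass. Their 95% intervals ran from -0.10 to 0.55 and from -0.07 to 0.58. After quantile normalization the 24 h difference passed, at 0.46, as did both times after centring, at 0.79 and 0.53, and after spike-in scaling the sign turned at both, at -1.62 and -0.64. The mean over both probe sets passed as higher at 72 h (0.60, adjusted p = 0.00139).

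The dimmer SLC12A2 probe set was tighter within groups. It read 6.06, 6.00 and 6.03 in control cells and 6.39, 6.42 and 6.34 with Ota at 24 h, and 5.25, 5.50 and 5.12 against 6.29, 6.21 and 6.2 at 72 h. No neighbouring groups overlapped. It rose by 0.35 ± 0.13 (adjusted p = 0.0384) at 24 h and by 0.95 ± 0.13 (adjusted p = 8.17e-05) at 72 h as deposited, while after spike-in scaling the differences were -1.50 and 0.06. The effect changed by 0.59 ± 0.19 (adjusted p = 0.0242) between the times as deposited and by 1.55 after spike-in scaling (adjusted p = 0.00266), but the call was lost after quantile normalization (0.29, adjusted p = 0.255) and centring (0.31, adjusted p = 0.254). In control cells this probe set fell by 0.74 on the log2 scale from 24 h to 72 h (adjusted p = 0.00204), and in Ota cells it differed by -0.15 ± 0.13 (adjusted p = 0.358).

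Of the aquaporins, AQP3 alone was measured above the filter. Both AQP1 probe sets stayed under the filter on every array, between 2.45 and 2.60 and between 2.06 and 2.08. No AQP1 signal was thus measured in any group, although AQP1 is the water channel of the proximal tubule in the kidney. Of the 11 other aquaporin genes listed, 9 were on the array with a probe set of their own and 0 passed the filter.

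AQP3 did pass. Its brightest probe set read 6.57, 7.22 and 7.00 in control cells and 8.04, 7.81 and 8.21 with Ota at 24 h, and 6.10, 6.37 and 6.39 against 8.47, 8.75 and 7.70 at 72 h. Every Ota array lay above every control array of either time. AQP3 rose by 1.09 ± 0.26 (limma adjusted p = 0.00305), or 2.13-fold, at 24 h, but fell by 0.76 there after spike-in scaling (adjusted p = 0.0131). At 72 h it rose by 2.02 ± 0.26 (adjusted p = 3.5e-05), or 4.05-fold, and it rose there under all 4 scalings, with 2.16, 2.30 and 1.13 after quantile normalization, centring and spike-in scaling. The larger effect at 72 h was not established: its change of 0.93 ± 0.36 had an adjusted p of 0.0522. It passed after spike-in scaling (1.89, adjusted p = 7e-04). The change also passed without control replicate 1 (1.11) or Ota replicate 3 (1.02) of 24 h. Leaving out Ota replicate 3 of 72 h gave 1.23 (adjusted p = 0.00603). In the fit on means over probe sets it passed as well (0.93, adjusted p = 0.0488). AQP3 has a single probe set over the filter, so that fit used the same AQP3 values and adds no other probe set. The mean over Ota arrays was 8.02 ± 0.21 at 24 h and 8.31 ± 0.54 at 72 h, and that over controls 6.93 ± 0.33 and 6.29 ± 0.16. The other AQP3 probe sets lay under the filter, with values of 3.31 to 4.77 and 2.53 to 3.69.

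NEDD4L showed the largest difference of the 6 tested genes at 24 h. Its brightest probe set read 7.46, 6.79 and 7.23 in control cells and 11.23, 10.57 and 10.90 with Ota at 24 h, and 8.61, 8.86 and 8.60 against 10.39, 10.16 and 10.36 at 72 h. The 4 groups did not overlap, in the order Ota at 24 h, Ota at 72 h, control at 72 h, control at 24 h. NEDD4L rose by 3.74 ± 0.20 (limma adjusted p = 5.5e-08), or 13.4-fold, at 24 h, above 99.5% of all tested genes. It rose by 1.61 ± 0.20 (adjusted p = 3.36e-05), or 3.06-fold, at 72 h. Both rises held under all scalings: 3.88, 4.30 and 1.89 at 24 h and 1.64, 1.89 and 0.72 at 72 h after quantile normalization, centring and spike-in scaling, the last with an adjusted p of 0.047. For this probe set the effect changed by -2.13 ± 0.29 between the times (adjusted p = 0.000148). That change was also negative and past the threshold under the other scalings (-2.25, -2.41 and -1.17).

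The probe sets of NEDD4L did not all move alike. A second one read 5.86, 5.12 and 5.24 in control cells and 9.24, 9.01 and 8.72 with Ota at 24 h, and 6.46, 6.26 and 6.39 against 8.0, 7.96 and 8.20 at 72 h. It rose by 3.59 ± 0.20 and 1.69 ± 0.20 (adjusted p = 6.73e-08 and 2.37e-05), close to the values of the brightest. Its effect changed by -1.9 ± 0.29 (adjusted p = 0.000351), but after spike-in scaling the change did not pass (-0.94, adjusted p = 0.064). Another read 8.32, 8.43 and 8.19 in control cells and 8.63, 8.40 and 8.47 with Ota at 24 h, and 8.03, 7.91 and 8.12 against 8.57, 8.07 and 8.92 at 72 h. Its groups overlapped at both times, and it differed by 0.19 ± 0.20 (adjusted p = 0.426) at 24 h and rose by 0.50 ± 0.20 (adjusted p = 0.0456) at 72 h as deposited, while after spike-in scaling the differences were -1.66 and -0.39. Its effect changed by 0.31 ± 0.28 (adjusted p = 0.383) as deposited and by 1.27 (adjusted p = 0.0259) after spike-in scaling. Within each array, the brightest minus this last probe set went from -1.15 ± 0.42 (SD, n = 3) in control cells to 2.40 ± 0.21 with Ota at 24 h, and from 0.67 ± 0.25 to 1.78 ± 0.33 at 72 h. Those differences of 3.55 and 1.11 do not depend on a shift of the whole array. They were chosen after the values were seen and carry no test. The remaining 3 NEDD4L probe sets lay under the filter, with values of 2.11 to 4.69.

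**Figure D2:**
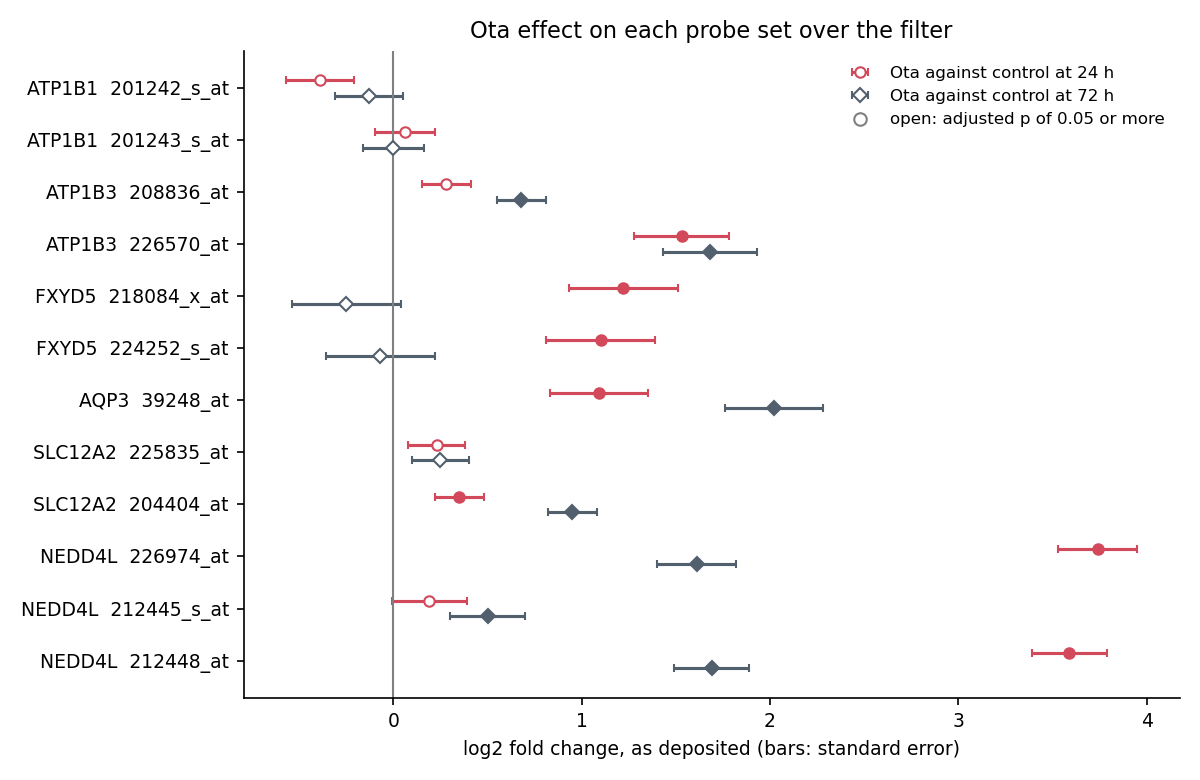
Log2 fold change (horizontal axis, bars of 1 standard error) of Ota against control for the 12 probe sets over the filter, at 24 h and 72 h, with open symbols where the adjusted p was 0.05 or more. As deposited, 7 probe sets rose at each time and 0 fell. In either direction the same fit called 11734 of all 19401 probe sets at 24 h and 11404 at 72 h. Of all tested genes, 20.8% and 24.8% were called as higher. At 24 h 2 probe sets of NEDD4L lie at 3.74 and 3.59 while the third lies at 0.19. After spike-in scaling only those 2 of the 12 are above 0 at 24 h, where the median of all genes is -2.09.

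The scalings set how many genes count as raised. Of all genes called at 24 h, 34.0% were higher with Ota in the deposited values, 45.0% once quantile normalized, 61.9% with centred arrays and 1.49% with spike-in scaling. At 72 h the shares were 41.3%, 44.4%, 56.1% and 7.63%. NEDD4L at both times and AQP3 at 72 h were the gene and time pairs among the 6 tested genes that passed as higher under all 4. FXYD5 and AQP3 at 24 h passed as higher under 3 scalings and as lower after spike-in scaling. ATP1B3 at 72 h passed as higher under 3.

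**Figure D3:**
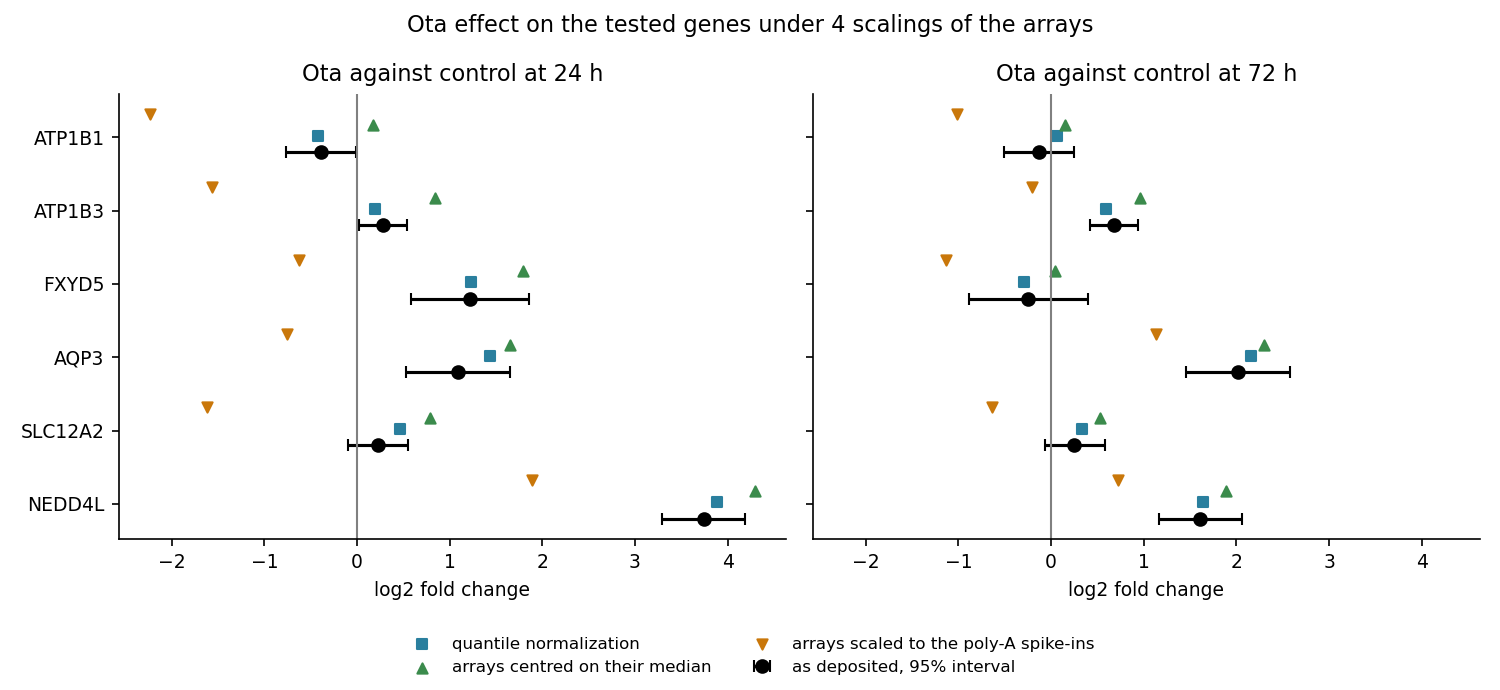
Log2 fold change (horizontal axis) of Ota against control at 24 h and 72 h for the 6 tested genes, as deposited with its 95% interval (black) and after 3 other scalings of the arrays (coloured). Spike-in scaling puts every gene but NEDD4L below 0 at 24 h and every gene but AQP3 and NEDD4L below 0 at 72 h, while NEDD4L stays above 0 at both times under all 4.

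Time in culture moved 2 of the 6 genes in control cells, where limma called 25.5% of all genes, 12.2% as higher at 72 h and 13.3% as lower. NEDD4L rose by 1.53 ± 0.20 (limma adjusted p = 0.000236), above 98.0% of all genes, and its value was between 1.5 and 1.6 after the other scalings. Its second probe set rose by 0.96 ± 0.20 (adjusted p = 0.0054), and the third differed by -0.29 ± 0.20 (adjusted p = 0.323). ATP1B3 fell by 0.43 on the log2 scale (adjusted p = 0.0219). That call was lost after spike-in scaling (-0.46, adjusted p = 0.314) and without control replicate 1 (-0.40) or 3 (-0.39) of 24 h, or control replicate 1 (-0.44) or 3 (-0.37) of 72 h. AQP3 and SLC12A2 had every control array of 72 h below every control array of 24 h, with differences of -0.64 ± 0.26 (adjusted p = 0.0912) and -0.28 ± 0.15 (adjusted p = 0.193) that did not pass. Groups did not overlap for 4 of the 6 genes, beside 53.5% of all genes.

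In Ota cells 2 of the 6 genes were lower at 72 h than at 24 h and 0 higher, where 60.3% of all genes were called, 37.0% as higher and 23.3% as lower. FXYD5 fell by 1.77 on the log2 scale (SE 0.29, limma adjusted p = 0.000305), and by 0.84 after spike-in scaling (adjusted p = 0.00745). NEDD4L fell by 0.60 (adjusted p = 0.0246) as deposited, and differed by 0.33 (adjusted p = 0.336) after spike-in scaling. Its call was also lost without Ota replicate 1 of 24 h (-0.43, adjusted p = 0.106), without Ota replicate 2 of 72 h (-0.53, adjusted p = 0.0736) and in a fit of the Ota arrays alone (adjusted p = 0.0524). Groups did not overlap for 3 of the 6 genes, beside 62.1% of all genes. The comparisons share arrays: both time comparisons use the groups of the Ota comparisons. As deposited, the brightest NEDD4L probe set thus moved in control and Ota cells toward a closer value. It went from 7.16 ± 0.34 and 10.90 ± 0.33 (SD, n = 3) at 24 h to 8.69 ± 0.14 and 10.30 ± 0.12 at 72 h. After spike-in scaling its differences over time were 1.5 in control cells and 0.33 in Ota cells, both upward. The third NEDD4L probe set differed by -0.29 in control cells and 0.02 in Ota cells as deposited, which is not a move toward each other.

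The genes whose values were most like each member over the 12 arrays were found by Pearson correlation among all tested genes. These correlations mix differences between groups with those between arrays of a group, and all genes share the arrays and their scaling, so they are descriptions. ATP1B1 was most like CD2AP (r = 0.975), ZNF22 (0.961) and RAB40B (0.949). ATP1B3 was most like ANXA4 (0.981), NET1 (0.979) and CD44 (0.975), and 34 genes had r over 0.95 with it. FXYD5 was most like CTSB (0.989), which differed by 1.09 at 24 h and -0.26 at 72 h, then MDK (0.975) and METRN (0.971). For AQP3 the likest were ZFP82 (0.980), STK35 (0.975) and RALGDS (0.974), with 20 genes over 0.95. SLC12A2 had 1 such gene, TSC22D2 (0.965), followed by PLBD2 (0.921) and HOXC9 (0.919). NEDD4L had 30, led by FBXO42 (0.986), with differences of 3.02 and 1.37, APPBP2 (0.980) and IL6ST (0.978). Once the group means were removed, r was 0.95 for FXYD5 with CTSB and 0.94 for ATP1B1 with CD2AP, and 0.46 for NEDD4L with FBXO42.

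Around the 7 genes, 109 others of the same pathways were listed in 10 groups, of which 93 were on the array with a probe set of their own and 54 passed the filter. At 24 h 8 of the 54 (14.8%) rose and 23 (42.6%) fell, beside 20.8% and 40.5% of all genes, with a median log2 fold change of -0.30 beside -0.24. At 72 h 17 (31.5%) rose and 18 (33.3%) fell, beside 24.8% and 35.2% of all genes, with a median of 0.12 beside -0.11. The shares that fell thus lie near those of all genes, and the counts of each group below, as deposited, stand against the same shares. These counts follow the scaling, as do those of all genes. After centring 20 rose and 18 fell at 24 h, with a median of 0.26 beside 0.32 for all genes. After spike-in scaling 0 rose and 53 fell, with a median of -2.15 beside -2.09. That scaling called 10187 of all 10729 tested genes at 24 h, 1.49% of them as higher, so most tested genes fell under it. At 72 h 7.63% of its calls were higher. The counts of each group after spike-in scaling stand against these shares. For 27 of the 54 the Ota effect changed between the times, beside 49.5% of all genes. No other pump subunit on the list was tested; the alpha subunits were not analysed here.

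**Figure D4:**
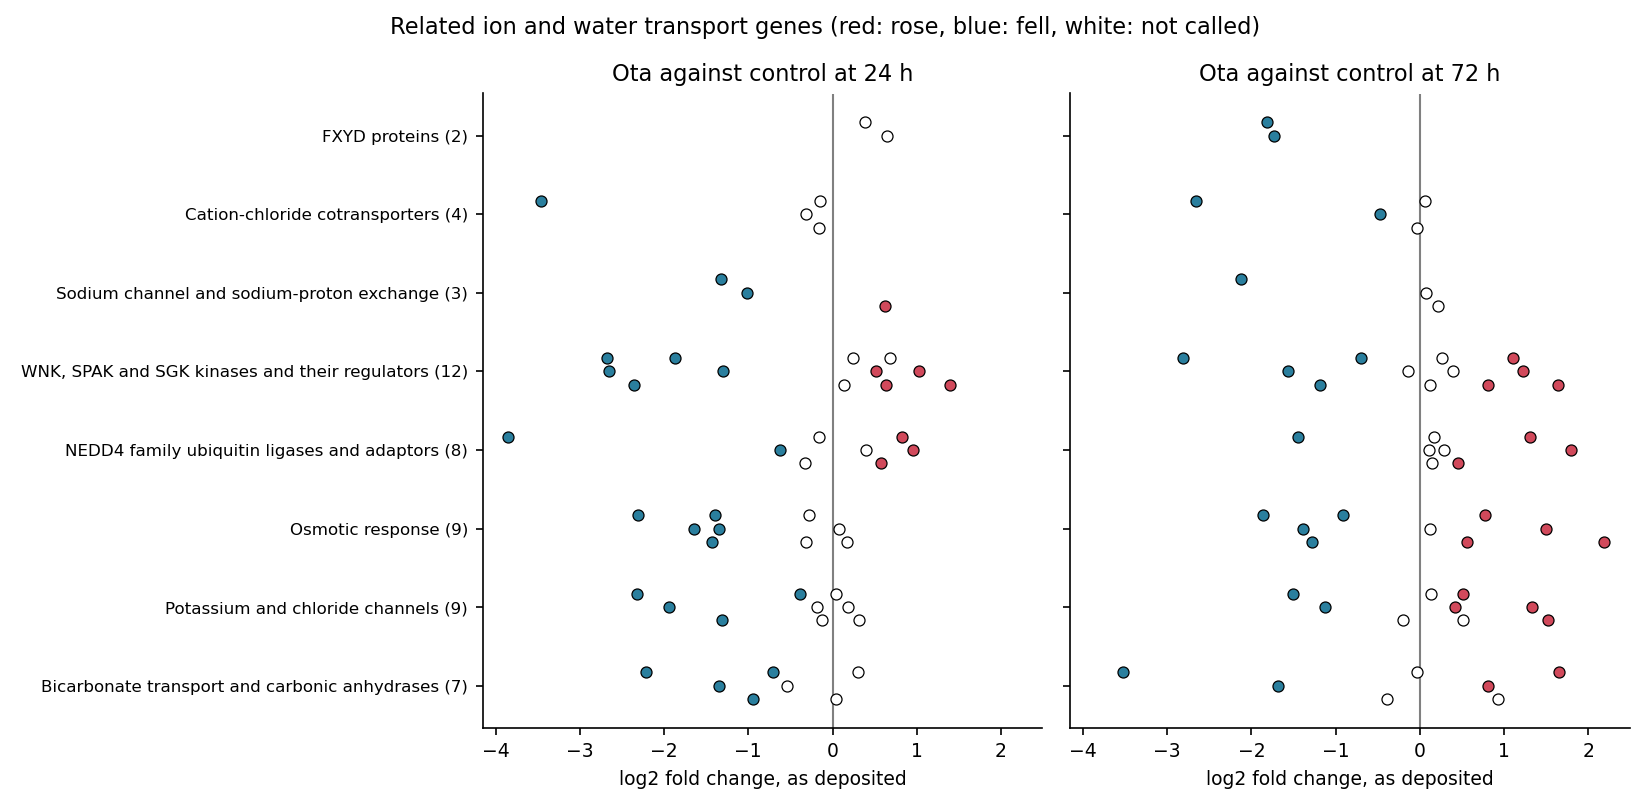
Log2 fold change as deposited (horizontal axis) of Ota against control at 24 h and 72 h for the 54 tested genes of the related pathways, 1 point per gene, by group with the number tested in parentheses. At 24 h 8 points are red (rose) and 23 blue (fell), and at 72 h 17 are red and 18 blue. After spike-in scaling 0 rose at 24 h and 3 at 72 h, where 1.49% and 7.63% of all called genes were higher.

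The FXYD and cotransporter families held few tested members. FXYD2, the gamma subunit of the kidney's pump, differed by 0.39 ± 0.29 (limma adjusted p = 0.254) at 24 h and fell by 1.81 on the log2 scale at 72 h (adjusted p = 0.000187). Its probe set is marked as cross-hybridizing, and the other FXYD2 probe set, at a mean of 4, gave -1.04 and -0.37, neither past the threshold. FXYD6 gave 0.65 ± 0.31 (adjusted p = 0.0866) at 24 h and fell by 1.73 at 72 h (adjusted p = 0.000412). Its 24 h difference passed as higher with replicate number as a block (adjusted p = 0.0212). It did so too after quantile normalization (0.93, adjusted p = 0.0236) and centring (1.21, adjusted p = 0.00545), and it passed as lower after spike-in scaling (-1.20). The 24 h difference of FXYD2 was 0.95 after centring, which passed as higher, and -1.46 after spike-in scaling, which passed as lower. Of 4 tested cotransporters 0 rose, 1 fell at 24 h and 2 at 72 h, where 40.5% and 35.2% of all genes fell, and all 4 fell at both times after spike-in scaling. SLC12A8 fell at both times, with -3.46 ± 0.39 and -2.66 ± 0.39, the former against an Ota mean of 3.78 that lies under the filter value, and SLC12A9 fell by 0.47 at 72 h (adjusted p = 0.0323). The SLC12A9 call was lost after quantile normalization (-0.24) and centring (-0.19), and without any array of 72 h other than Ota replicate 2, with adjusted p up to 0.114.

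Among sodium entry genes, SCNN1A encodes the alpha subunit of the epithelial sodium channel, the best known target of NEDD4L. Its brightest probe set fell by 1.32 at 24 h (limma adjusted p = 9.27e-05) and fell by 2.12 at 72 h (adjusted p = 2.31e-06), while its other probe set gave 0.65 and 0.15 and the mean over both did not pass at 24 h (-0.33, adjusted p = 0.0826). The genes of the remaining subunits that were on the array did not pass the filter. SLC9A8, a sodium-proton exchanger, rose by 0.62 at 24 h as deposited and gave -1.23 after spike-in scaling, and its call was lost without Ota replicate 1 (0.45, adjusted p = 0.0743). NHERF1, a scaffold that anchors transporters at the apical membrane, fell by 1.01 at 24 h and differed by 0.22 ± 0.15 at 72 h, with 0.50 after centring, which passed, and -0.67 after spike-in scaling, which did not.

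Of 12 tested kinases and regulators of the WNK, SPAK and SGK pathway, which controls cotransporters and NEDD4L, 4 rose and 5 fell at 24 h, and 4 rose and 4 fell at 72 h, beside falls of 40.5% and 35.2% of all genes. The counts were 7 and 5 at 24 h after centring, and after spike-in scaling 0 rose while 11 fell at 24 h and 6 at 72 h. OXSR1, a kinase that phosphorylates SLC12A2, fell at both times, with -2.68 ± 0.23 and -0.70 ± 0.23, the latter lost after centring (-0.42) and without control replicate 2, Ota replicate 2 or Ota replicate 3 of 72 h (adjusted p up to 0.0623). TSC22D3 (GILZ), a glucocorticoid-induced regulator, fell too, with -2.65 ± 0.35 and -1.57 ± 0.35. So did NR3C2, the mineralocorticoid receptor, with -1.30 ± 0.33 and -2.81 ± 0.33. The falls of OXSR1 and TSC22D3 were larger at 24 h and that of NR3C2 at 72 h, and the change of effect passed for OXSR1 and NR3C2 (adjusted p = 0.000498 and 0.0178) but not for TSC22D3 (adjusted p = 0.0911, and 0.0233 without Ota replicate 3 of 72 h). After spike-in scaling the change of TSC22D3 did pass (2.05, adjusted p = 0.00144) and that of NR3C2 did not (-0.55).

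Members of NEDD4L's own family moved in both directions. Of 8 tested ligases and adaptors 3 rose and 2 fell at 24 h, with a median of 0.12, and 3 rose and 1 fell at 72 h, beside rises of 20.8% and 24.8% of all genes. After spike-in scaling 0 rose and 8 fell at 24 h, with a median of -1.73, and 1 rose and 2 fell at 72 h. WWP2, a ligase of the same family, fell by 3.85 at 24 h (limma adjusted p = 7.02e-08), to an Ota mean of 3.45 under the filter value, and fell by 1.45 at 72 h. WWP1 rose by 0.95 and 1.79 (adjusted p = 0.00028 and 2.15e-06), with a second probe set at -0.86 and 1.10. Its 24 h value was 0.04 with the mean over both and -0.90 after spike-in scaling. NDFIP2, a membrane adaptor that recruits and activates these ligases, rose by 0.83 and 1.31 as deposited, while after spike-in scaling it was lower at 24 h (-1.02) and did not pass at 72 h (0.42, adjusted p = 0.204).

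The osmotic response genes, NFAT5 aside, load the cell with organic solutes or let them out. Of the 9 tested, 0 rose and 5 fell at 24 h. At 72 h 4 rose and 4 fell, where 24.8% of all genes rose and 35.2% fell. Quantile normalization and centring gave 2 rises and 5 falls at 24 h, and spike-in scaling 0 and 9 there and 1 and 5 at 72 h. The inositol transporter SLC5A3 fell at both times (-1.64 and -1.39), with 1 of its 3 probe sets moving the other way (0.99 and 1.88), and the mean over them did not pass at 72 h (-0.48). The betaine transporter SLC6A12 is counted among the falls, but it passed the filter only through the control arrays: its means were 4.79 and 4.33 in control cells and 2.48 and 2.47 with Ota, far under the filter value, so these levels are a description and no fold is drawn from them. LRRC8E, a subunit of the volume-regulated anion channel, differed by 0.17 ± 0.19 at 24 h and rose by 2.19 at 72 h, while its second probe set gave -1.21 and 2.14. Its 24 h difference passed as higher after quantile normalization (0.62) and centring (0.73) and as lower with the mean over both probe sets (-0.52) and after spike-in scaling (-1.68).

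Potassium and chloride channels gave 0 rises and 4 falls of 9 at 24 h, where 40.5% of all genes fell, and 4 rises and 2 falls at 72 h, where 24.8% rose. The counts were 3 and 3 at 24 h and 6 and 2 at 72 h after centring, and 0 and 9, then 1 and 4, after spike-in scaling. KCNN4, a calcium-activated potassium channel, fell by 1.31 at 24 h and rose by 1.52 at 72 h, so that its effect changed by 2.82 ± 0.31 (limma adjusted p = 3.96e-05). KCNJ15, an inward rectifier, fell at both times by its brightest probe set (-2.32 and -1.51), but 2 of its 5 probe sets moved the other way (1.39 and 0.85, and 2.35 and 0.84), and the mean over all 5 did not pass at either time (-0.39 at both). CLIC1 fell by 1.94 at 24 h and differed by -0.20 ± 0.25 at 72 h, with 0.08 after centring and -1.09, which passed, after spike-in scaling. Among 7 genes of bicarbonate and anion transport, 4 fell at 24 h, and 2 rose and 2 fell at 72 h, beside falls of 40.5% and 35.2% of all genes. At 24 h 1 rose and 1 fell after centring, and 0 rose and 7 fell after spike-in scaling. SLC4A4, the sodium bicarbonate cotransporter of the proximal tubule, fell at both times (-2.22 and -3.52), and all of its 5 probe sets were lower at both times. SLC4A11 fell too (-0.95 and -1.68), the first lost after quantile normalization (-0.56) and centring (-0.39) and without control replicate 1 or 3 or Ota replicate 1 of 24 h (adjusted p up to 0.109). SLC26A2, a sulfate transporter, fell by 0.71 at 24 h (adjusted p = 0.0493), a call lost after quantile normalization (-0.59) and centring (-0.15), without Ota replicate 2 of 24 h (-0.34, adjusted p = 0.182) and without 8 other arrays taken out in turn, and rose by 1.65 at 72 h (0.76, adjusted p = 0.0564, after spike-in scaling).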

How the data were processed

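RNA of 12 samples of HK-2 cells was hybridized to Affymetrix arrays, 1 sample per array. The deposited values are log2 expression values per probe set that the authors made with GCRMA, per the submitters' processing notes; the version and the arrays normalized together are not given in the sources used here. The platform annotation gave 1 symbol for 41097 of 54675 probe sets, several for 1801 and none for 11777.

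Genes were kept with a value over 4 on at least 3 of 12 arrays, each represented by its probe set with the highest mean, leaving 10729. Group means were fitted over the 4 groups with limma 3.58.1 in R 4.3.3 (residual df 8, prior df 3.56), with 5 two-sided contrasts and Benjamini-Hochberg adjustment over all genes at 0.05. A second fit used all 19401 probe sets over the filter. The fit was also run on simulated data with independent noise and no array-wide shift, so that run does not bear on the scaling. Array-wide values were compared by exact permutation over 10 splits. The number of arrays limits the precision. The files name no genome build; the only positions given are those of promoters in RefSeq's table, in GRCh38.p14.

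The members and lists were chosen with earlier results of these data known. Named genes were the 7 members, up to 3 genes of each pathway group with the largest fold change past the threshold, and the 3 genes most correlated with each member. Markers of 8 cell types were checked: besides those given in the report, 1 of 6 passed the filter for the loop of Henle and distal tubule, 2 of 5 for podocytes, 0 of 6 for endothelium, 3 of 6 for fibroblasts and 0 of 6 for leukocytes. Alternatives covered scaling, filter, choice of probe set, variance moderation, threshold, arrays in the fit, single arrays and replicate number. The labels number the replicates but do not say that Ota and control arrays of a number belong together. Deviations from the group means of Ota and control arrays with the same replicate number correlated with r = 0.12, 0.23 and 0.27 at 24 h. At 72 h these were -0.05, 0.14 and 0.19. Arrays of different numbers gave -0.25 to 0.02 at 24 h and -0.20 to 0.08 at 72 h. Pairing was not tested.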

Additional observations from a re-analysis of the deposited data

Results flagged for a closer look

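The Ota effect differed between 24 h and 72 h for 2 of the 6 tested members and 27 of the 54 related genes by the test of the difference itself (limma, adjusted p under 0.05), beside 49.5% of all tested genes. Values are given for the members and for those related genes that the report names. A negative value means a lower Ota effect at 72 h.

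Among the members these were FXYD5, with a change of -1.47 ± 0.41 (adjusted p = 0.0121), and NEDD4L, with -2.13 ± 0.29 (adjusted p = 0.000148). Among the named related genes the effect was lower at 72 h for FXYD2 (-2.20), FXYD6 (-2.38), SCNN1A (-0.80), NR3C2 (-1.51) and SLC4A4 (-1.30). It was higher at 72 h for NHERF1 (1.23), OXSR1 (1.98), WWP1 (0.84), WWP2 (2.40), LRRC8E (2.02), KCNJ15 (0.81), KCNN4 (2.82), CLIC1 (1.74) and SLC26A2 (2.37). After spike-in scaling, which moves the median change of all genes by 0.96, the change of SCNN1A was 0.16, and that of FXYD5 was -0.51 with an adjusted p of 0.233. The call for SCNN1A (adjusted p = 0.0272) was lost without control replicate 1 (-0.74) or 3 (-0.75) or Ota replicate 1 (-0.73) of 24 h, and without control replicate 1 (-0.81) or 2 (-0.71) or Ota replicate 3 (-0.63) of 72 h. For FXYD2 it rests on a probe set marked as cross-hybridizing, and without such probe sets the change was 0.67 (adjusted p = 0.438), and with the mean over its probe sets -0.76 (adjusted p = 0.0659). The KCNJ15 call (adjusted p = 0.0314) was lost with the mean over the gene's 5 probe sets (0.01, adjusted p = 0.98), without 8 of the 12 arrays taken out in turn, with values of 0.59 to 0.83 there, and after centring (0.53). Without the filter on low values KCNJ15 (adjusted p = 0.0591) and NR3C2 (adjusted p = 0.0578) no longer passed. After spike-in scaling the changes of NR3C2 (-0.55) and SLC4A4 (-0.34) no longer passed, nor did SLC4A4 with the mean over its probe sets (-0.98, adjusted p = 0.0794). The WWP2 change rests on an Ota mean of 3.45 at 24 h, under the filter value of 4.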

How the results depend on the processing

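The number of the 6 tested genes past the threshold moved mainly with the scaling. The larger moves of that number are given first. At 24 h it was 3 as deposited, 5 after centring, 6 after spike-in scaling and 5 with trend and robust moderation. At 72 h it went from 3 to 5 after spike-in scaling, and for the change of effect from 2 to 5. For control cells over time it went from 2 to 1 after spike-in scaling and to 1 where a log2 difference of 1 or more was also asked for. For Ota cells over time it went from 2 to 4 after quantile normalization, 5 after spike-in scaling, and 1 with that limit on the difference or with the arrays of that comparison alone. Leaving out single arrays gave 3 to 4 at 24 h, 3 to 3 at 72 h, 2 to 3 for the change of effect, and 1 to 3 for both time comparisons. Smaller moves were these. At 24 h quantile normalization added SLC12A2, and dropping the filter or averaging probe sets added ATP1B3. At 72 h centring or averaging added SLC12A2, and the limit on the difference removed ATP1B3. For the change of effect dropping the filter or trend moderation added ATP1B3, and averaging added AQP3. In control cells over time averaging added SLC12A2 and the control arrays alone AQP3. In Ota cells centring added SLC12A2 and trend moderation ATP1B1.

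The larger moves in the count of all genes past the threshold were as follows. Spike-in scaling gave 10187 at 24 h and 1280 for control cells over time. Fitting all probe sets, which tests more features, gave 11734 at 24 h, 11404 at 72 h, 8889 for the change of effect, 4577 for control and 11174 for Ota cells over time. The limit on the difference gave 4040, 3994, 1210 and 3868 in the same comparisons without the change of effect, and the control arrays alone gave 4309. Without single arrays the counts ran from 5870 to 6648, 5753 to 7110, 4633 to 5888, 1913 to 3583 and 5572 to 6695. With replicate numbers as a block the fit called 6659, 6529, 5399, 2810 and 6515 genes, in the same order, and changed no call of a member; of the other named genes it added FXYD6 at 24 h (0.65, adjusted p = 0.0212).

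The sign of single values turned as follows; the cause was not tested. At 24 h quantile normalization turned SLC12A9 (0.35), centring turned ATP1B1 (0.17) and SLC12A9 (0.41), and spike-in scaling turned ATP1B3 (-1.57), FXYD5 (-0.63), AQP3 (-0.76), SLC12A2 (-1.62), FXYD2 (-1.46), FXYD6 (-1.20), SLC9A8 (-1.23), WWP1 (-0.90), NDFIP2 (-1.02) and LRRC8E (-1.68). The mean over probe sets turned FXYD2 (-0.32) and LRRC8E (-0.52), and leaving out cross-hybridizing probe sets turned FXYD2 (-1.04). At 72 h quantile normalization turned ATP1B1 (0.06), centring ATP1B1 (0.15), FXYD5 (0.04) and CLIC1 (0.08), and spike-in scaling ATP1B3 (-0.21), SLC12A2 (-0.64), SLC9A8 (-0.82) and NHERF1 (-0.67). For the change of effect quantile normalization turned SLC12A2 (-0.13), centring ATP1B1 (-0.02), SLC12A2 (-0.25) and SLC5A3 (-0.03), spike-in scaling SLC12A9 (0.64), SCNN1A (0.16), SLC9A8 (0.40) and SLC4A11 (0.23), and leaving out cross-hybridizing probe sets FXYD2 (0.67). For Ota cells over time quantile normalization turned ATP1B3 (0.01) and spike-in scaling ATP1B3 (0.90), SLC12A2 (0.67) and NEDD4L (0.33). Without single arrays SLC12A9 at 24 h ran from -0.27 to 0.03, SLC9A8 at 72 h from -0.01 to 0.14, CLIC1 at 72 h from -0.44 to 0.09, the SLC12A2 change of effect from -0.07 to 0.12 and ATP1B1 in control cells over time from -0.05 to 0.17. The alternatives were tallied for the tested members in all comparisons, and for the named pathway genes in all but the time comparisons. Genes named only for their correlation with a member were left out. In this tally 1992 values kept their direction and their side of the threshold, 57 newly passed it, 86 no longer did and 45 turned their sign.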
